A study of Saccharomyces cerevisiae with 6 samples.

Results

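The positions described here are those of the yeast 35S gene at which the last nucleotide of the transcript is U. They were chosen from the base column of the deposited table alone, with no use of occupancy, and there are 1920 of them among the 6858 positions of the gene (28.0%). NET-seq of RNA polymerase I (Pol I) had been carried out in 3 WT and 3 *spt4△* libraries of *Saccharomyces cerevisiae*, which the study describes as biological triplicates. Cells of both strains were grown at 30 °C to an OD600 of 0.3, and Pol I was precipitated through an HA tag on its Rpa135 subunit. The strains differ in more than *SPT4*. The WT strain also lacks the chromosomal *RPA190* gene (*rpa190Δ::HIS3Mx6*), carries *RPA190* on a pRS315 plasmid and has its tag marked with TRP1mx6, whereas the *spt4△::HIS3* strain has its tag marked with URA3mx6. The comparison asked whether Pol I is found more or less often at U when Spt4 is absent.

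Pol I makes the precursor of the large ribosomal RNAs. The precursor holds 18S rRNA, the RNA of the small ribosomal subunit, and 5.8S and 25S rRNA of the large subunit, set between external (ETS) and internal (ITS) transcribed spacers that are cut out during maturation. Spt4 forms a complex with Spt5 that travels with elongating polymerases. In NET-seq, RNA still held by the polymerase is sequenced from its 3′ end. The start of each read, which is the last base of the RNA, marks the nucleotide that Pol I had just added. Many reads at a position mean that Pol I was often found there.

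The sequences below are those of the U positions with the largest changes and highest occupancy, each with 10 bases on either side, and the capital marks the last nucleotide. They are written as RNA from the base column of the table, which equals the minus strand of chromosome XII of the R64 reference at all 6858 positions (0 mismatches).
position 166 in ETS1, chrXII:467394-467414: uugacaugggUugaugcguau
position 218 in ETS1, chrXII:467342-467362: aguguguuucUuuugcguuua
position 232 in ETS1, chrXII:467328-467348: gcguuuaaccUgaacagucuc
position 340 in ETS1, chrXII:467220-467240: cuugggggaaUgccuuguuga
position 368 in ETS1, chrXII:467192-467212: gucgcaagacUgugauucuuc
position 628 in ETS1, chrXII:466932-466952: caagagggaaUaggugggaaa
position 2308 in 18S, chrXII:465252-465272: ucagcuugcgUugauuacguc
position 2498 in 18S, chrXII:465062-465082: ggaaggaucaUuaaagaaauu
position 2667 in ITS1, chrXII:464893-464913: cggugagagaUuucugugcuu
position 6319 in 25S, chrXII:461241-461261: ugcggcugucUgaucaggcau
position 6399 in 25S, chrXII:461161-461181: uagaacgcggUgauuucuuug

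The second set shows the runs of at least 6 consecutive U, with the run in capitals, because the difference between the strains varied with place in a run.
run from 665 in ETS1, chrXII:466894-466911: ucuuucUUUUUUacugcu
run from 1362 in 18S, chrXII:466197-466214: guccgaUUUUUUcgugua
run from 1754 in 18S, chrXII:465804-465822: guggugUUUUUUUaaugac
run from 2528 in ITS1, chrXII:465030-465048: aauggaUUUUUUUguuuug
run from 3097 in ITS2, chrXII:464460-464479: uggaugUUUUUUUUccaaag
run from 3182 in ITS2, chrXII:464376-464394: cuaaucUUUUUUUauacug
run from 6647, the last base of 25S, into ETS2, chrXII:460912-460929: gauuugUUUUUUauuucu

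Depth differed between the strains. The WT libraries held 5545592 to 10024580 reads and the *spt4△* libraries 307372 to 482329, so a U position had a median of 446.5 to 780 reads in WT and of 31 to 49 in *spt4△*. No read fell on 8 to 15 U positions in WT and on 42 to 66 in *spt4△*, and 6 U positions had no read in any library. The smallest level that can be told from 0 was taken as 3 reads, a level of 0.299 to 0.541 rpm for WT libraries and of 6.22 to 9.76 rpm for *spt4△* libraries. This limit covers counting error only. Depth followed strain in every library, and its part in the results was not tested beyond filters on low values. Rpm are shares of a library, so they say nothing of the total amount of Pol I on the gene.

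U positions held a larger share of the reads in *spt4△* than in WT. Replicates 1 to 3 of WT had 25.6%, 25.4% and 24.8% of their reads at U, and those of *spt4△* had 31.3%, 30.2% and 29.4%. Values of single libraries are given in this order of replicates throughout. All 3 *spt4△* libraries lay above all 3 WT libraries. The means were 25.3% ± 0.420 (SD, n = 3) and 30.3% ± 0.940, a difference of 5.02 points (exact permutation, two-sided, p = 0.1; a lower p is not possible with 3 against 3 libraries). The share of reads at A was correspondingly lower, at 34.3% ± 0.138 in WT and 29.4% ± 1.14 in *spt4△*, whereas those at G and at C overlapped between the strains. A single U position, 6399 in 25S, made up 0.583% ± 0.0946 of the WT reads and 3.84% ± 0.464 of the *spt4△* reads. Without it the share of reads at U was 24.8% ± 0.351 and 27.5% ± 0.630, still without overlap, and the difference fell to 2.68 points.

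Occupancy of a position was next set against its surroundings, to remove the slope along the gene. Local occupancy is the rpm at a position divided by the mean rpm of the surrounding 200 positions, 100 on each side. Its median over the U positions was 0.519, 0.538 and 0.551 for WT, against 0.718, 0.707 and 0.713 for *spt4△*. The strains did not overlap, and the *spt4△* median was 1.33 times the WT median (0.536 ± 0.0163 and 0.713 ± 0.00520, difference 0.176, exact permutation p = 0.1). U was the base with the lowest median in each WT library, and G was the lowest in each *spt4△* library. Among positions with a mean of at least 100 rpm, and by the mean over positions in place of the median, G was also the lowest base in WT.

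Positions with another last base moved less on this measure. At C the median local occupancy was 0.631 ± 0.0156 in WT and 0.709 ± 0.0169 in *spt4△*, higher without overlap. At G it was 0.577 ± 0.0358 and 0.612 ± 0.0194, with overlap. At A it was 0.892 ± 0.0192 and 0.829 ± 0.0522, lower without overlap, although the A libraries overlapped once position 6399 was left out of the data. Dividing by the local median made the C libraries overlap as well. With that setting the difference between the strains was −0.205 at A, without overlap, and 0.178 at U, so A did not move less. Over all positions other than U the median was 0.685 ± 0.0216 and 0.711 ± 0.0161, and the strains overlapped.

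**Figure D1:**
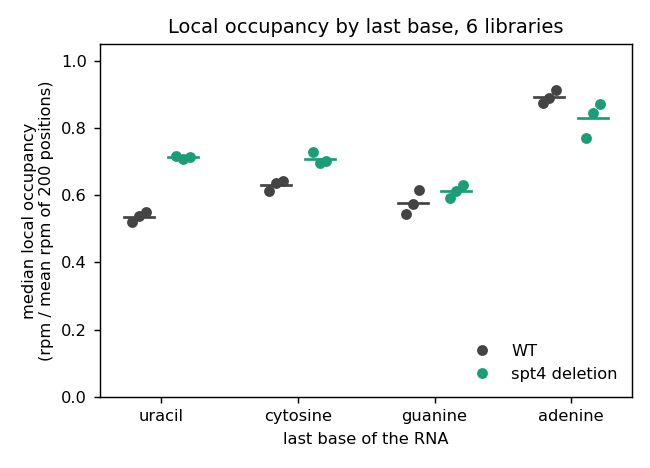
Median local occupancy (rpm over the mean rpm of the surrounding 200 positions) by the last base of the RNA. Each point is 1 library, grey for WT and green for the *spt4* deletion, and each line is the mean of 3 libraries. At uracil the WT points lie between 0.519 and 0.551 and the deletion points between 0.707 and 0.718.

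The change at U was then compared with that at the other bases within each library. The log2 ratio of the median at U to the median at all other positions was −0.35, −0.35 and −0.36 for WT, against 0.05, −0.03 and −0.01 for *spt4△*. U thus lay below the other bases in 3 of 3 WT libraries, while the *spt4△* libraries lay close to equality. The difference between the strains was 0.36 on the log2 scale, without overlap (exact permutation p = 0.1). Over all 6 libraries the mean log2 ratio was −0.18 and did not pass a two-sided exact sign-flip permutation test (p = 0.156, the smallest possible being 0.0312). By the mean over positions in place of the median, the log2 ratio was −0.24 for WT and 0.21 for *spt4△*. Among positions with a mean of at least 100 rpm the medians lay closer, with a log2 ratio of −0.12 for WT and 0.04 for *spt4△*. Of the 1920 U positions, 512 (26.7%) exceeded the mean of their surroundings in WT and 657 (34.2%) in *spt4△*.

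The difference was seen along the gene, with the highest ratios between the strains in ITS2 and ETS1. In ETS1, with 211 U positions, the median local occupancy at U was 0.198, 0.198 and 0.208 for WT, against 0.484, 0.380 and 0.349 for *spt4△*. The *spt4△* mean was 2.01 times the WT mean. In ITS2 (86 positions) WT gave 0.205, 0.191 and 0.221 and *spt4△* gave 0.531, 0.422 and 0.425, a ratio of 2.23. ITS1 (121 positions) had 0.199 ± 0.00776 in WT and 0.270 ± 0.0379 in *spt4△*. In ETS2 (79 positions) the values were 0.0892 ± 0.0162 and 0.155 ± 0.0619 and the libraries overlapped (exact permutation p = 0.2). In ETS2 this overlap depended on the setting, since the strains separated with a window of 400 positions or within the own region and under most other alternatives that keep all 6 libraries. The share of ETS2 reads at U was also higher without overlap (50.4% ± 3.28 in WT and 55.3% ± 1.15 in *spt4△*).

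In the parts of the transcript that become mature rRNA the median at U started from a higher level. It was 0.660 ± 0.0158 in WT and 0.800 ± 0.0131 in *spt4△* over the 510 U positions of 18S. For 5.8S (44 positions) it was 0.692 ± 0.0208 and 0.968 ± 0.0210, and for 25S (869 positions) 0.688 ± 0.0277 and 0.824 ± 0.0142. In each of the 6 regions other than ETS2 the *spt4△* libraries lay above the WT libraries (exact permutation p = 0.1 each, adjusted p = 0.117 over the 7 regions, a threshold of 0.05 being out of reach).

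The other bases of the same regions gave a different picture. In ETS1 their median was lower in *spt4△* (0.458 ± 0.00772 in WT and 0.347 ± 0.0256), and in ITS1 likewise (0.361 ± 0.0343 and 0.303 ± 0.0200), both without overlap. In 18S it was 0.819 ± 0.0120 and 0.818 ± 0.00791, with overlap. It was higher without overlap in 5.8S (0.879 ± 0.0340 and 0.968 ± 0.0135) and in 25S (0.738 ± 0.0243 and 0.791 ± 0.0184). The log2 ratio of U to the other bases in ETS1 was −1.19 ± 0.03 in WT and 0.21 ± 0.35 in *spt4△*, a difference of 1.40. The *spt4△* libraries of ETS1 were spread, at 0.61, 0.10 and −0.07, but all lay above the WT libraries. The same difference was 0.68 in ITS1, 0.34 in 5.8S and 0.28 in 18S, each without overlap (exact permutation p = 0.1 each). In ETS2 the *spt4△* libraries fell on both sides of WT, at 1.08, −0.81 and 0.68 against −0.78, −0.34 and −0.89 for WT (exact permutation p = 0.3). In reads, U positions took 17.3% ± 0.341 of the ETS1 reads in WT and 31.5% ± 2.89 in *spt4△*. For ITS1 these shares were 17.6% ± 0.206 and 32.7% ± 2.54.

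**Figure D2:**
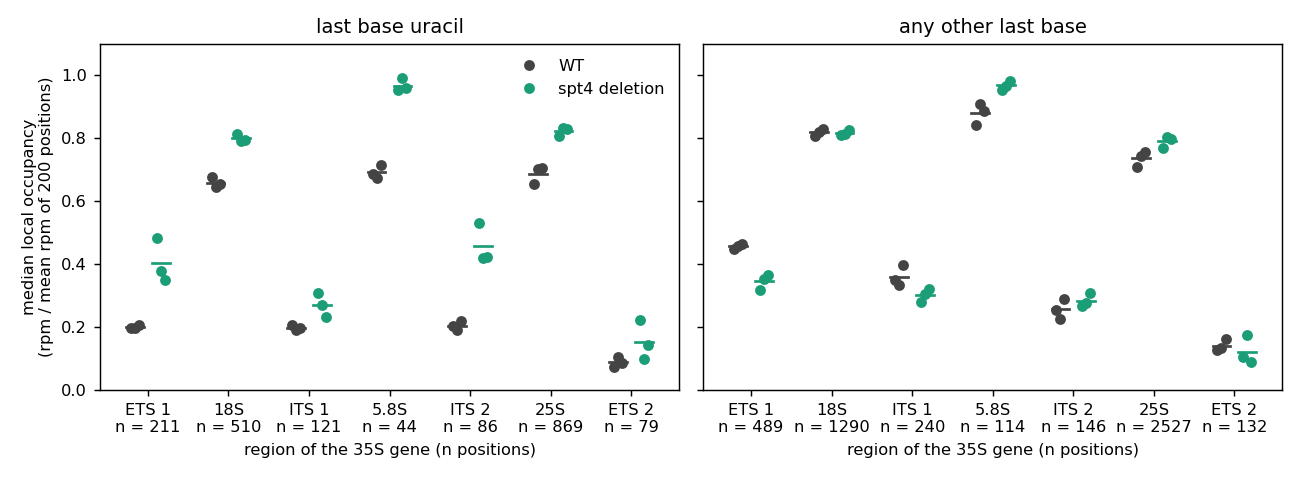
Median local occupancy by region of the 35S gene at positions ending in uracil (left) and at all other positions (right). Each point is 1 library, grey for WT and green for the *spt4* deletion, and lines are means of 3 libraries. At uracil the deletion libraries lie above WT in every region except ETS2, where they overlap with this window, while at other bases those of ETS1 and ITS1 lie below WT.

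Both the level in WT and the size of the difference varied with the base before the U. After G, 443 U positions had a median local occupancy of 0.748, 0.784 and 0.794 for WT, against 0.918, 0.909 and 0.918 for *spt4△*. After C, 394 U positions had 0.461, 0.507 and 0.509 for WT, against 0.815, 0.824 and 0.775 for *spt4△*. U after C therefore lay below U after A in every WT library and above it in every *spt4△* library, and its log2 ratio of 0.71 between the strains was the highest of the 8 classes of previous and next base. After A (455 positions) the medians were 0.553 ± 0.0158 and 0.718 ± 0.0272. After another U (628 positions) they were 0.421 ± 0.00634 and 0.536 ± 0.0222, the lowest of the previous bases in every library of either strain.

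The medians lay closer together by the base that followed. Before A (412 positions) the median at U was 0.701 ± 0.0136 in WT and 0.875 ± 0.0494 in *spt4△*, the highest of the next bases. Before G (512 positions) it was 0.572 ± 0.0171 and 0.740 ± 0.0283. Before C (367 positions) it was 0.489 ± 0.00945 and 0.642 ± 0.0311, and before U (628 positions) 0.455 ± 0.0158 and 0.653 ± 0.0197. In all 8 classes the *spt4△* libraries lay above the WT libraries (exact permutation p = 0.1 each, adjusted p = 0.1 over the 8). Among the other last bases, C also lay above after A, C or G and before C or U. The same held for G after or before C and for A before C. A lay below after C or G and before A or G, and the remaining classes overlapped. Against A, G or C with the same previous base, U lay below in WT and above in *spt4△* where that base was A or C. The log2 ratio was −0.29 ± 0.03 in WT and 0.26 ± 0.04 in *spt4△* after C, and −0.16 ± 0.02 and 0.17 ± 0.10 after A. After G and after U it was below 0 in all 6 libraries.

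Taking both neighbours gave 16 classes of 3 bases with U in the middle. In 15 of the 16 the *spt4△* libraries lay above the WT libraries and in 0 below. Among all 64 classes of 3 bases, 46.9% lay above and 12.5% below. With A, C and G in the middle, 2, 8 and 5 of 16 classes lay above and 6, 1 and 1 below. In WT the highest classes were GUA (0.889 ± 0.00853), AUA (0.832 ± 0.0567) and GUU (0.794 ± 0.0310), and the lowest were CUC (0.355 ± 0.0372), UUU (0.382 ± 0.0188) and UUC (0.417 ± 0.0177). The classes with the highest ratio between strains all began with C. CUU had 0.413, 0.411 and 0.452 for WT, against 0.719, 0.777 and 0.721 for *spt4△*, a log2 ratio of 0.80. CUC and CUG had log2 ratios of 0.74 and 0.69. GUA had the smallest, 0.09, and its libraries overlapped, followed by AUA with 0.17 and GUC with 0.26.

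Farther from the U, bases were compared at each offset from 10 before to 10 after, which gives 80 classes of offset and base. All 80 had higher medians in *spt4△*, with log2 ratios from 0.15 to 0.71. All are parts of the U set, whose own median had a log2 ratio of 0.41 between strains. The same classes at A, G and C were not computed. The medians of the 4 bases lay farthest apart in WT at offsets 2 after and 1 before the U, by 0.39 and 0.35. For the ratio between strains the 4 bases lay farthest apart at 3 after and 1 before, by 0.49 and 0.47 on the log2 scale. These classes overlap in their members, since each U position enters 20 of them.

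The U positions form 1292 runs, of which 879 are a single U and 15 hold at least 5. A single U had a median local occupancy of 0.644 ± 0.0259 in WT and 0.841 ± 0.00952 in *spt4△*. Within runs of 2 or more, the first U had 0.532 ± 0.0278 and 0.761 ± 0.0331, and the last U had 0.462 ± 0.0177 and 0.574 ± 0.0478. The log2 ratio between strains was thus 0.52 at the first U and 0.31 at the last. In the 31 runs of exactly 4 it went from 0.70 at the first U through 0.65 and 0.28 to −0.07 at the last, where the libraries overlapped.

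In the 15 runs of at least 5 the strains were separate at the first U and overlapped at the inner U and at the last. At the first U the medians were 0.275, 0.291 and 0.302 for WT, against 0.541, 0.623 and 0.602 for *spt4△*, a ratio of 2.03. The 57 inner U had 0.242 ± 0.0216 and 0.243 ± 0.0165 (exact permutation p = 0.9), and the 15 last U had 0.483 ± 0.0627 and 0.509 ± 0.0655 (exact permutation p = 0.5). Whether the difference at the first U exceeded that at the inner U was not tested. The first base of these runs follows a base other than U, so place in a run and previous base cannot be told apart here.

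Single long runs went either way. In the ITS2 run from 3097, the longest at 8 bases, local occupancy at the first U was 0.274, 0.219 and 0.302 for WT, against 0.541, 0.768 and 0.530 for *spt4△*. The ETS1 run from 665 had a first U at 0.130, 0.159 and 0.257 for WT, against 0.670, 0.462 and 0.686 for *spt4△*. Both were higher in each *spt4△* library than in any WT library. The same held for the first U of the ITS1 run from 2528 (means 0.129 in WT and 0.295 in *spt4△*). It also held for that of the ITS2 run from 3182 (0.283 and 0.540). The 18S run from 1754 went the other way, with its first U at 4.35, 3.48 and 3.63 for WT, against 1.57, 1.23 and 1.55 for *spt4△*. The 18S run from 1362 also had a first U that was lower in every *spt4△* library (0.956, 0.801 and 0.732 for WT, against 0.379, 0.580 and 0.502 for *spt4△*). In the run from 6647, whose first U is the last base of mature 25S, that first U had no read in any library.

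**Figure D3:**
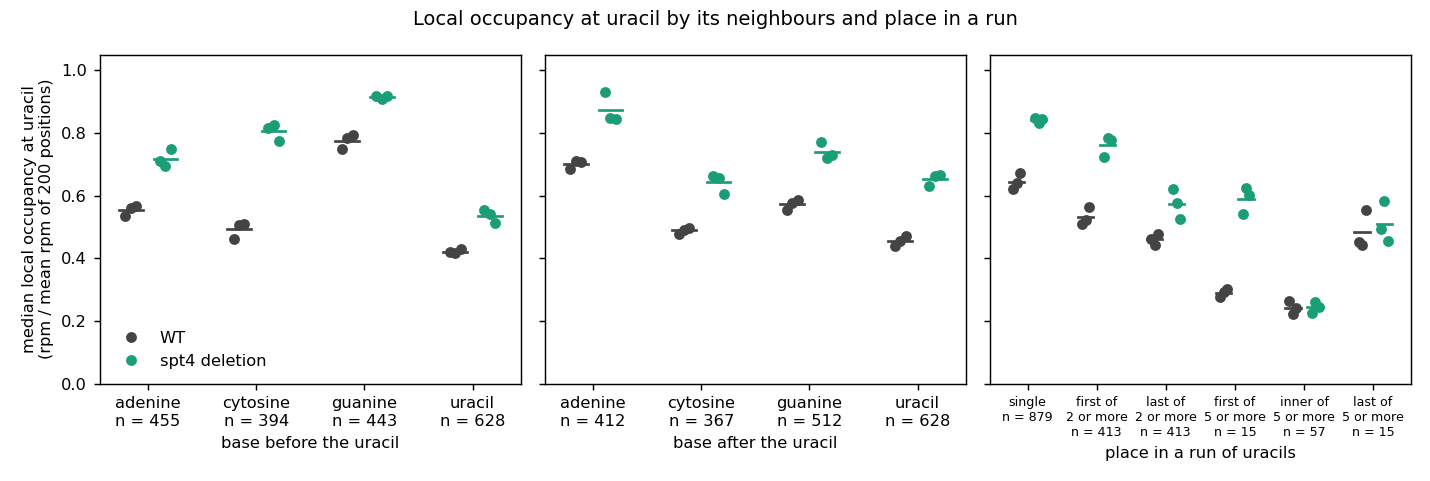
Median local occupancy at uracil by the base before it (left), the base after it (middle) and its place in a run of uracils (right), with the number of positions under each class. Each point is 1 library, grey for WT and green for the *spt4* deletion, and lines are means of 3 libraries. The widest gap among previous bases is at cytosine (0.493 against 0.805), and inner positions of runs of at least 5 overlap (0.242 against 0.243).

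Single positions were tested with limma across all 6848 positions that had a read in at least 1 library. Of the 1914 U positions tested on log2 local occupancy, 681 (35.6%) rose and 277 (14.5%) fell at an adjusted p under 0.05. Over all positions tested, 25.8% rose and 21.3% fell. For A the shares were 17.6% up and 31.7% down, for G 22.8% and 19.3%, and for C 27.1% and 19.5%. The median log2 change over all U positions was 0.27, against −0.14 at A, 0.07 at G, 0.09 at C and 0.06 over all positions. The libraries did not overlap at 818 U positions that were higher (42.7%) and 357 that were lower (18.7%), where the shares of all positions are 32.3% and 26.5%.

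On log2 rpm, which keeps the slope along the gene, limma called 672 U positions up (35.1%) and 270 down (14.1%), with 25.2% and 21.0% of all positions. The libraries did not overlap on rpm at 785 higher and 357 lower U positions (41.0% and 18.7%), and at 30.7% and 25.9% of all positions. Both fits called 581 U positions up and 192 down, and 0 had opposite calls. U positions after C had the highest share of local rises, with 195 of 394 up (49.5%) and 36 down (9.14%). After G the numbers were 138 up (31.2%) and 91 down (20.6%) of 442, and after another U 188 up (30.2%) and 76 down (12.2%) of 623. The balance by region depended on the scale. On local occupancy 40.3% of ETS1 U positions rose and 13.7% fell, and on rpm 54.0% and 5.21%. In 5.8S, 47.6% rose and 16.7% fell on local occupancy, whereas 23.8% rose and 28.6% fell on rpm. In ITS2 the shares were 40.7% up and 5.81% down on local occupancy and 27.9% and 10.5% on rpm. In 18S they were 35.2% and 13.2% on local occupancy and 44.4% and 10.4% on rpm, and in 25S 34.4% and 16.6% against 27.4% and 20.7%. ITS1 had 33.1% up and 10.7% down on local occupancy and 34.7% and 4.13% on rpm. ETS2 had 29.9% and 15.6% on local occupancy and 23.4% and 0% on rpm. Shares over all positions of the same region or with the same previous base were not computed. These numbers therefore compare U positions with each other only.

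**Figure D4:**
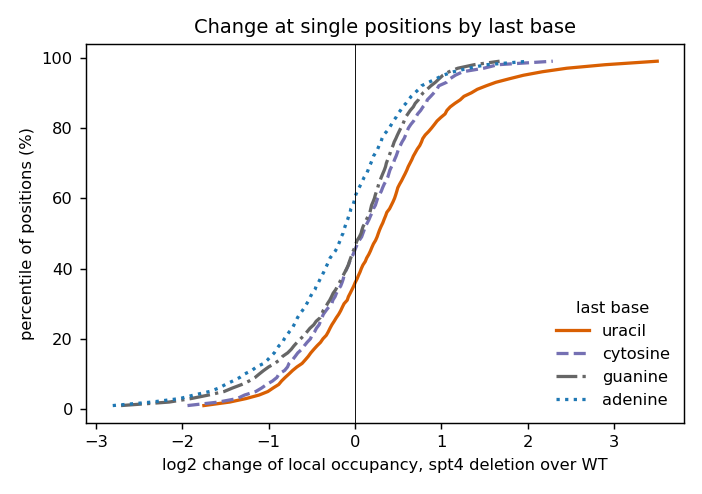
Cumulative distribution of the log2 change of local occupancy (*spt4* deletion over WT, mean of 3 libraries each) at single positions, by last base. The horizontal axis is the log2 change and the vertical axis the percentile of positions. The uracil curve lies to the right of the others, with a median of 0.27 against −0.14 for adenine.

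U positions made up most of the large local rises and few of the large falls. A change was counted as large where it was called, the libraries did not overlap and the log2 change exceeded 2. Of all positions tested, 1.99% had such a rise and 1.91% such a fall. Of the 136 rises, 91 were at U (66.9%), 19 at A, 17 at C and 9 at G. Of the 131 falls, 14 were at U (10.7%), 56 at A, 50 at G and 11 at C. Of the 14 at U, 2 lay in 25S, at positions 6317 and 6319. Both were no longer large with position 6399 taken out of their window. Counts of falls at the other bases with that window are not given here. With a log2 change over 3, 31 of 43 rises were at U (72.1%).

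The 91 U positions with a large rise lay mainly in the spacers, with 41 in ETS1 (19.4% of its tested U), 17 in ITS1 (14.0%), 13 in ITS2 (15.1%) and 5 in ETS2 (6.49%). By contrast 7 lay in 18S (1.38%), 8 in 25S (0.922%) and 0 in 5.8S. Whether large rises at other bases also lay mainly in the spacers was not computed. Most of them had low occupancy in WT. Median occupancy over the 91 was 9.25 rpm for WT and 114 rpm for *spt4△*, and their median local occupancy was 0.174 and 1.46. The median of their lowest read count was 46 in WT and 31 in *spt4△*, above the limit of 3 reads. Of the 91, 30 were the first U of a run (7.28% of the 412 tested), 44 were single U (5.01% of 879) and 17 came later in a run (2.73% of 623).

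The largest rises and falls below were ranked among called U positions whose libraries do not overlap between the strains. Their small adjusted p-values and lack of overlap were thus fixed by this choice and are no support. The mean rpm of each over 6 libraries also had to exceed the median of all positions. The 5 highest rises had 3.79 to 12.4 rpm in WT and passed this filter through *spt4△* alone, so their rank is a description that rests on the change itself. The first of them, position 628, lies 73 bases before the start of 18S. Its occupancy was 4.19, 6.49 and 6.81 rpm for WT, against 367, 305 and 280 rpm for *spt4△*. The WT values rest on 36 to 60 reads and the *spt4△* values on 86 to 177 reads. Local occupancy rose from 0.143 ± 0.0262 to 5.14 ± 0.957, a log2 change of 4.94 (SE 0.17, limma adjusted p = 3.41e-07).

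Position 2667 was the U position with the highest mean rpm in ITS1, with most of that mean coming from *spt4△*. It had 6.29, 5.95 and 9.30 rpm for WT, against 188.7, 294.0 and 279.9 rpm for *spt4△*. All *spt4△* libraries lay far above WT, and the local log2 change was 4.74 (SE 0.16, adjusted p = 3.41e-07). The next 3 rises in this ranking lay in ETS1. Position 218, the first of 4 consecutive U, had 6.58, 6.31 and 11.1 rpm for WT, against 375, 269 and 273 rpm for *spt4△* (local log2 change 4.42). Position 340 had 4.49, 3.79 and 7.94 rpm for WT, against 315, 171 and 143 rpm for *spt4△* (4.31). Position 368 had 8.58, 9.02 and 12.4 rpm, against 315, 294 and 319 rpm (4.19). A call and a lack of overlap were conditions of this ranking, so their limma adjusted p-values (4.73e-07 to 1.66e-05) are description only.

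In ETS1 a pair of U positions lying 66 bases apart changed in opposite directions. Position 166 had 89.8, 118 and 169.8 rpm for WT, against 921, 1114 and 1185 rpm for *spt4△*, where it was the U position with the third highest local occupancy. Its local occupancy rose from 2.42 ± 0.418 to 13.3 ± 1.98 (log2 change 2.46, SE 0.16, adjusted p = 1.20e-05). Position 232 had the highest mean rpm of the ETS1 U positions over the 6 libraries but lay below position 166 in every *spt4△* library, with 966, 1136 and 1212 rpm for WT, against 324, 369 and 273 rpm for *spt4△*. Its local occupancy fell from 30.6 ± 3.43 to 4.79 ± 0.743 (log2 change −2.66, SE 0.16, adjusted p = 6.65e-06), the largest local fall in the same ranking.

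In 18S, position 2308 fell from 235, 290 and 289 rpm in WT to 51.9, 77.5 and 55.3 rpm in *spt4△* (local log2 change −2.50, SE 0.15, adjusted p = 7.08e-06). The other 3 of the 5 largest falls above the median mean rpm, positions 6319, 6317 and 6315 of 25S, lie within 4 bases of each other. Position 6319 had 1517, 1291 and 1140 rpm for WT, against 489, 438 and 446 rpm for *spt4△*. All 3 have position 6399 among their surrounding 200 positions. Their local log2 changes were −2.29, −2.26 and −1.61, and −1.41, −1.37 and −0.70 with position 6399 taken out of the window, a choice made after its value was seen. With a window of 100 positions position 6315 was no longer called (log2 change −0.29, adjusted p = 0.167). Positions 2308 and 6315 had means of 61.6 and 88.2 rpm in *spt4△*, where the median at U was 102 rpm. Their WT means were 271 and 159 rpm, so they passed the filter on mean rpm mainly through WT. The rank of such falls is likewise a description that rests on the change itself.

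Position 6399 was the most occupied U of 25S, and its local occupancy was 33.6, 30.9 and 26.4 for WT, against 261, 230 and 207 for *spt4△*. It rose against its surroundings by 2.94 on the log2 scale (SE 0.34, limma adjusted p = 0.000236). Beyond its next 10 bases, the following 5 bases of the transcript equal the 5 linker bases that come after the linker's random stretch, and it is the 1 U position for which all 5 match. Its part in the result was not tested. The 15 U positions with 4 of 5 matching bases had a median local log2 change of 0.27, as did all U positions. This median of partial matches does not bear on the full match at position 6399.

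**Figure D5:**
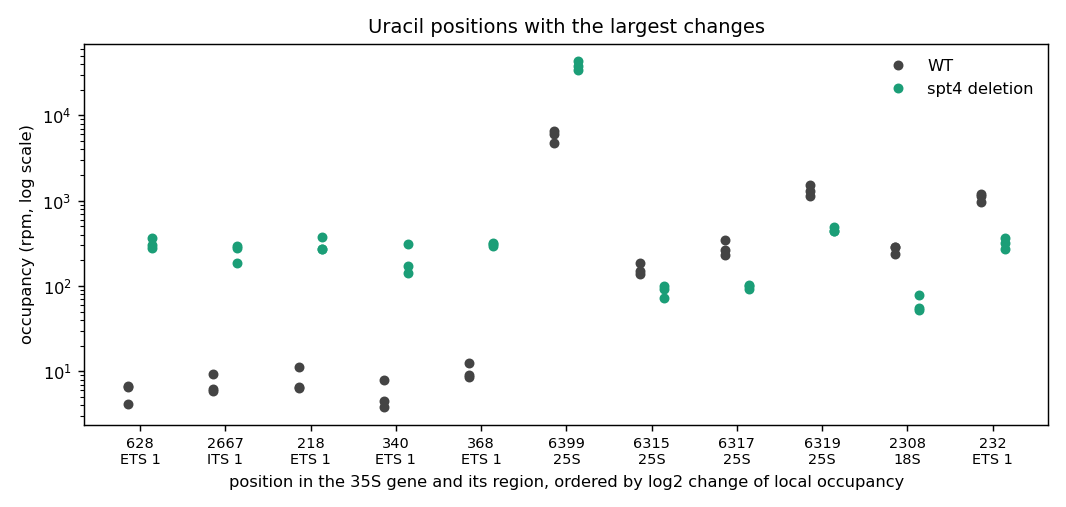
Occupancy (rpm, log scale) in each library at the uracil positions with the 5 largest local rises and the 5 largest local falls among called positions above the median mean rpm, and at position 6399, ordered by their log2 change of local occupancy. Grey points are WT and green points the *spt4* deletion. At the 5 rises WT lies between 3.79 and 12.4 rpm and the deletion between 143 and 375 rpm.

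The most occupied U positions next to mature ends had log2 changes of local occupancy between −0.18 and 0.33. Position 2498 lies 2 bases before the last base of 18S and had the highest local occupancy of all U positions in WT. It was at 38.1, 56.0 and 36.1 for WT, against 47.6, 50.0 and 47.4 for *spt4△*, with overlap (log2 change 0.19, SE 0.27, limma adjusted p = 0.600). Position 3014, 5 bases before the end of 5.8S, had 14.1 ± 0.883 and 12.5 ± 1.11, and position 3025, 6 bases after that end, had 6.42 ± 0.300 and 6.03 ± 0.337. On local occupancy both overlapped and neither was called. On rpm both fell without overlap, by 0.71 and 0.60 on the log2 scale (limma adjusted p = 0.00389 and 0.00153), and position 3025 also fell locally with a window kept within ITS2 (log2 change −0.51, adjusted p = 0.0158). Position 6662, 15 bases past the end of 25S, was higher in *spt4△* by 0.33 on the log2 scale (adjusted p = 0.0498), but this call was lost under most alternatives and the sign turned with a window kept within ETS2 (log2 change −0.45, adjusted p = 0.117). The first and last U of the gene were nearly empty. Position 2 had 0 to 3 reads in WT and 0 in *spt4△*, and position 6858 had 0 to 2 reads in either strain.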

How the data were processed

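NET-seq libraries of Pol I were available from 3 WT and 3 *spt4△* cultures, grouped by their labels. The authors removed duplicate reads by molecular identifier, and the submitters' processing notes name cutadapt 1.12, STAR 2.7.1a, SAMtools 1.6, bedtools 2.26.0 and genome build R64. The authors added the read ends of both copies of the gene (chrXII:460712-467569 and chrXII:451575-458432, which differ at 0 bases), and the deposited values are in rpm (RPM) of each library's total up to position 6739 (T1, an annotated terminator). The authors also deposited means, coefficients of variation, intervals, a ratio and a p-value per position for their own comparison of the strains, none of which was used here. Reads were recovered from the steps of the rpm values, and 11 of 41148 values were not whole within 0.01 of a read. Reads outside the gene were not used here.

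Local occupancy was the rpm divided by the mean of 100 positions on each side. Exact permutation tests (two-sided) compared quantities with 1 number per library. With 3 against 3 libraries this p equals 0.1 wherever the strains do not overlap, whatever the spread within a strain. It speaks of these libraries only. Single positions were tested with limma 3.58.1 (trend) in R 4.3.3 on log2(rpm + 1), and on that value minus log2(local mean + 1), over all positions with a read. A fold change on this scale understates that of low positions. The calls used a Benjamini-Hochberg adjusted p under 0.05. The fits were tested on simulated data. Alternatives used other pseudocounts (0.1 and 10), filters (10 and 100 rpm), windows and scalings, edgeR 4.0.16 and DESeq2 1.42.0 on recovered reads, a replicate block and leaving out 1 library in turn. Python 3.11.15 was used for the rest.

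A rule chose which U positions are named. It takes, in each strain, the top 3 by median local occupancy; in each of the 7 regions, the 1 with the highest mean rpm; the first and last U of the gene; and, in each direction, the 5 with the largest local change. For the last, a position had to be called, to have no overlap between the libraries of the strains and to exceed the median of all positions in mean rpm. Long runs of U and counts of large changes were chosen after their values were seen. The members, classes and tests were chosen with earlier results of these data known.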

Additional observations from a re-analysis of the deposited data

Results flagged for a closer look

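In 6 classes the log2 ratio of the median local occupancy at U to that at the other bases was below 0 in all 3 WT libraries and above 0 in all 3 *spt4△* libraries, which is what singled them out. The *spt4△* minus WT difference of this log2 ratio was 1.01 in ITS2 (−0.32 ± 0.07 in WT and 0.69 ± 0.27 in *spt4△*) and 0.16 in 25S (−0.10 ± 0.02 and 0.06 ± 0.01). By the previous base it was 0.32 after A and 0.56 after C. By the next base it was 0.41 before A (−0.14 ± 0.01 and 0.26 ± 0.10) and 0.15 before C (−0.07 ± 0.01 and 0.08 ± 0.08). Libraries of the strains that lie on opposite sides of 0 cannot overlap, so a permutation p would be fixed by this choice, and the differences were not tested. Library depth followed strain in every one of them.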

How the results depend on the processing

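The share of reads at U and the medians of local occupancy at U, over the gene, by region and by neighbour, kept their direction under every alternative run. The difference in the share ran from 2.68 points without position 6399 to 5.204 without positions within 10 of a mature end, and from 4.52 to 5.45 with 1 library left out in turn. The difference in the median ran from 0.157 (mean of at least 100 rpm) to 0.243 (mean over positions), and from 0.168 to 0.184 with 1 library left out. The log2 ratio of U to other bases over 6 libraries ran from −0.21 (window of 400 positions) to −0.02 (mean over positions), and from −0.22 to −0.14 with 1 library left out, and missed the threshold throughout. The filter at 100 rpm, chosen after seeing the data like the alternatives without position 6399, left 930 U positions. Of these, 376 rose and 200 fell locally, and 335 rose and 220 fell in rpm. Fewer were tested, and falls made up a larger part of the calls than without the filter. Shares over all positions at this filter are not given here. Without 1 library, local rises ran from 504 to 706 and falls from 186 to 302, and rpm rises from 513 to 716 and falls from 187 to 284. On rpm, edgeR on recovered reads called 719 rises and 274 falls, edgeR with TMM factors 642 and 329, DESeq2 644 and 305, and limma scaled to the median position 566 and 341, against 672 and 270. For these fits and with 1 library left out, shares over all positions are likewise not given. Such counts compare settings at U only. By region the size of the difference depended on the setting, most in ETS1 (0.204, or 0.499 when divided by the local median, and 3.55 with the filter at 100 rpm, which keeps low WT positions only where *spt4△* is high), ITS1 (0.0709, or 0.321 by the mean over positions), ITS2 (0.254, or 0.128 with a window of 400 positions) and ETS2 (0.0656, from 0.0268 to 0.427). In 5.8S it was 0.276, and 0.117 with overlap when divided by the local median. In 25S it ran from 0.0879 to 0.259 around 0.135. After G it was 0.139, from 0.0798 (local median) to 0.559 (mean over positions), after A 0.164, or 0.0942 with the filter at 100 rpm, before A 0.173, or 0.0907 with the local median, and before G 0.168, or 0.459 by the mean over positions.

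Of the named positions, 3025 changed sign with a window of 100 positions (log2 change 0.037) and was called with a window within its own region (−0.51, adjusted p = 0.0158), 6662 with a window within its own region (−0.45), and 6858 with a pseudocount of 0.1 (−0.055) and without *spt4△* replicate 1, the leave-one-out values of 6858 running from −0.58 to 0.56. The cause was not tested. Same-numbered libraries did not deviate together (correlations −0.05 to 0.04 over all positions and −0.07 to 0.06 over U positions, on local occupancy and rpm). The paper lists its forward amplification primers by replicate number, so same-numbered libraries may share a primer. Whether they shared a batch was not tested. With the replicate block limma called 653 local rises and 276 falls at U, and 674 rises and 280 falls in rpm. Shares over all positions with this block are not given here. The paired sign-flip test gave an exact p of 0.25 for the share (5.02 points) and for the median (0.176), the smallest that 3 pairs allow. Depth limits the *spt4△* libraries most, where 104 to 164 U positions had fewer than 3 reads.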

Other observations

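Of the 34 positions of the gene with the highest mean rpm (the top 0.5%), 10 end in U. Beyond T1, the terminator annotated at position 6739, lie 45 U positions. Among all U positions, 131 had more than 2 times the mean of their surroundings in WT and 167 in *spt4△*, whereas 26 had more than 5 times that mean in either strain.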
